A study of Mus musculus with 2 samples.

Results

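Matrix metalloproteinases (MMPs) and their inhibitors (TIMPs) were examined in mouse peritoneal macrophages treated with LPS+CPN or with LPS+CPN+GGOH. The genes taken were Mmp2, Mmp8, Mmp9, Mmp12, Mmp13, Mmp14 and Mmp19 and the inhibitors Timp1, Timp2 and Timp3. They were found as every probe set whose platform annotation gives exactly 1 symbol, that of one of these genes. This gave 23 probe sets for 10 genes, of 18193 genes with such a probe set on the array. No probe set annotated with several genes named one of them.

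Both groups held macrophages of C57BL/6J mice, elicited with thioglycolate, which provokes a sterile peritoneal inflammation, and collected 3 days later. Both received LPS, a bacterial lipopolysaccharide that stimulates macrophages, and a compound given in the labels as CPN. The groups differed in GGOH (geranylgeraniol), an isoprenoid alcohol of the mevalonate pathway. The study asked which genes were higher or lower with it. There was 1 array per group and no replicate, so every difference describes these 2 arrays and carries no test. The sources used here do not give doses, treatment times or whether the animals were shared, and neither untreated nor LPS-only cells were analysed here.

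MMPs are zinc-dependent endopeptidases that cut collagens, elastin and other proteins of the extracellular matrix. Most are secreted as inactive precursors and become active when a propeptide is removed. TIMPs bind the active site of the mature enzymes and block it. Macrophages secrete several MMPs during inflammation, and TIMPs are made by macrophages and by stromal cells such as fibroblasts.

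Each value is a signal on a linear scale, computed per probe set by the MAS5 algorithm. Signals at or below 59.9, the median over both arrays, were treated as at the floor, that is, as not told from background. This limit was set by choice and was not measured from background. A probe set at the floor on 1 array gives only a bound on its fold difference, and one at the floor on both was not measured. Each gene's value is that of its brightest probe set by mean log2 signal over both arrays, and each log2 ratio is LPS+CPN+GGOH minus LPS+CPN. Where a gene had several probe sets above the floor on both arrays, their log2 ratios had a pooled SD of 0.45 (4166 genes). It is used here as a yardstick for disagreement between probe sets. Probe sets of a gene share both arrays, so this SD does not include differences between cultures or arrays. The highest signals of the 2 arrays were 56591 (LPS+CPN) and 47867 (LPS+CPN+GGOH).

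RefSeq promoter sequences (GRCm38.p6) were at hand for 7 of the 10 genes, with 8 annotated starts. Mmp2, Mmp9 and Mmp19 had no entry. The 250 bases before the start were searched for the AP-1 motif TGANTCA, which reads the same on both strands, and for the TATA box TATAAA on the gene's strand. The windows shown are those of Mmp12 and Mmp13, neighbours on chromosome 9 that both hold an AP-1 motif, and that of Timp3, the inhibitor with the largest difference. In the MMP windows capitals mark the AP-1 motif and, in Mmp13, the TATA box, which do not overlap. In Timp3 they mark CG dinucleotides. All 3 are on the + strand, and Mmp12 is shown at the second of its annotated starts (chr9:7347124-7347373 for Mmp12, chr9:7272264-7272513 for Mmp13 and chr10:86300162-86300411 for Timp3).
Mmp12: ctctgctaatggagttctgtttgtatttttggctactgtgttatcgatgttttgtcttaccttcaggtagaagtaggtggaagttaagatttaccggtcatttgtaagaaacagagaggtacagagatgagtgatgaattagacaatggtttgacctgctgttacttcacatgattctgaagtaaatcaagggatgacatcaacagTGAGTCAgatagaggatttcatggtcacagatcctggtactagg
Mmp13: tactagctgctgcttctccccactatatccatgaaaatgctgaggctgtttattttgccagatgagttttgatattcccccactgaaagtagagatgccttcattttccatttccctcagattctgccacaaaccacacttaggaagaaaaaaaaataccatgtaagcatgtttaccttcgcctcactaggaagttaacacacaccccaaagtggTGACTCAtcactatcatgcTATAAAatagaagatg
Timp3: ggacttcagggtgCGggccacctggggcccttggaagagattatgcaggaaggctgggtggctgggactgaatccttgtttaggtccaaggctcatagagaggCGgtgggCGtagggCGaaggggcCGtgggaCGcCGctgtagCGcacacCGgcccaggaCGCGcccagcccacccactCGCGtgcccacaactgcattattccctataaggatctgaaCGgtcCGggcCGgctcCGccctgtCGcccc

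The AP-1 motif began at base -44 before the start in Mmp12 and at base -35 in Mmp13, where the TATA box began at base -16. The AP-1 motif was found in 2 of the 8 windows of these genes and in 6.75% of 32851 RefSeq promoter windows of the same length. The TATA box was found in 7.59% of them. The window at the other Mmp12 start held neither. Motifs of NF-kB and TEAD factors and the CArG box were searched as well. They were found in 0, 1 and 0 of the 8 windows. Their shares over all windows were 3.90%, 12.6% and 1.47%. The windows also differed in base composition. CG dinucleotides numbered 18 in Timp3 and 21 in Timp2, against 1 in Mmp13, 2 in Mmp12 at the start shown, 4 in Mmp8, 6 in Timp1 and 10 in Mmp14. The median over all promoters was 6.00. These are matches of letters and do not show that a factor binds there.

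Across the family, 4 of 10 genes were at least 2-fold higher on the LPS+CPN+GGOH array: the gelatinase gene Mmp9, the elastase gene Mmp12, the collagenase gene Mmp8 and the inhibitor gene Timp3. None was at least 2-fold lower. Over all 11518 genes measured on at least 1 array, the 2-fold mark was passed upward by 634 (5.50%) and downward by 191 (1.66%). The upward share depended on signal, in classes set after the values were seen. It was 12.2% for geometric mean signals under 200, where Mmp8 (92.3) and Timp3 (121) lay. From 200 to 1000, where Mmp9 (256) lay, it was 4.37%. The family was chosen with earlier results of these data known, and all 10 of its genes were measured. Its share beside that of all genes is thus a description and no test. The median log2 ratio was 0.58 for the 10 genes, 0.61 for the 7 MMPs and 0.55 for the 3 TIMPs, against -0.01 for all measured genes. The MMP and TIMP medians are the values of the single genes Mmp19 and Timp1. As deposited, 48.6% of all measured genes had a ratio above 0. All 10 family genes had one, but the sign of Mmp13 and Timp3 was fixed by their being measured with LPS+CPN+GGOH alone, the probe sets of Mmp19 disagreed, and Mmp14 (-0.05) and Timp2 (-0.16) turned below 0 when arrays were divided by their medians. In bulk RNA such as this, fewer cells of a type and less RNA per cell cannot be told apart.

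**Figure D1:**
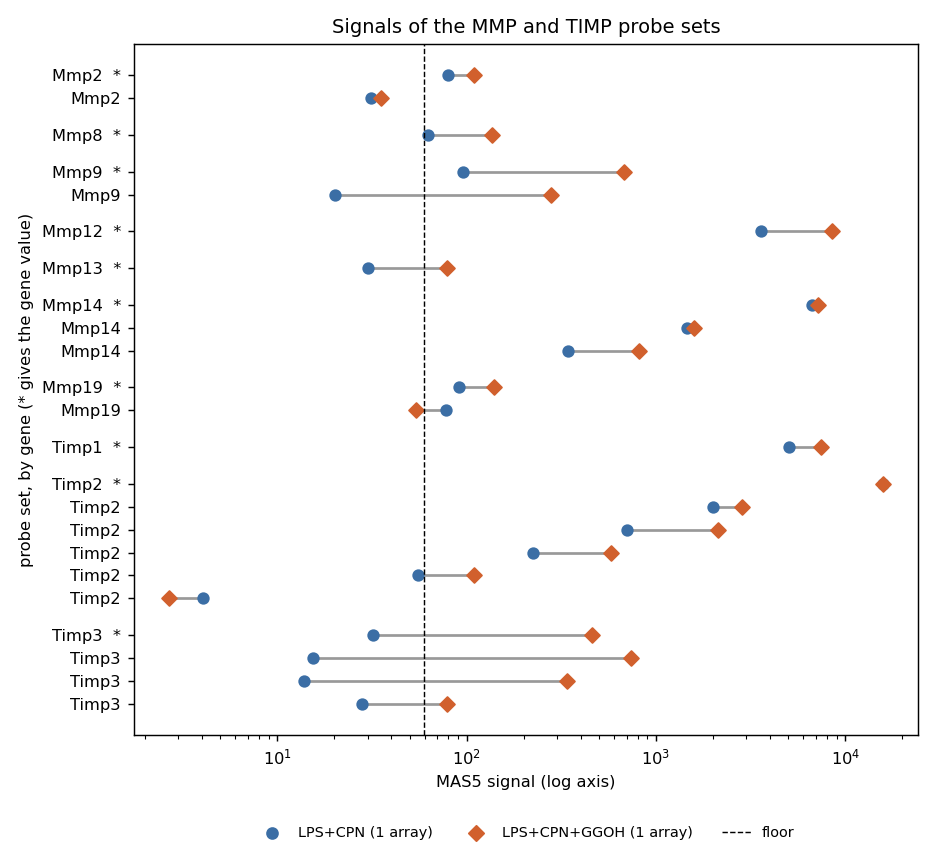
Signals of the 23 MMP and TIMP probe sets (rows, grouped by gene) on a log axis, with 1 circle for the LPS+CPN array and 1 diamond for the LPS+CPN+GGOH array. The dashed line is the floor of 59.9, and an asterisk marks the probe set that gives the gene's value. All 4 Timp3 circles lie left of the floor and all 4 diamonds right of it, while both Timp2 points of the top row coincide (15772 and 15798).

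Among the gelatinases, Mmp9 (gelatinase B), which cuts denatured collagen and basement membrane collagen, had the largest ratio of the family among genes above the floor on both arrays. Its signal was 96.1 with LPS+CPN and 679 with LPS+CPN+GGOH (probe set 1416298_at), 7.07-fold higher (log2 ratio 2.82). The other probe set (1448291_at) had 20.3 and 281, at least 4.70-fold higher. This second probe set was at the floor with LPS+CPN, so its direction was fixed by its being measured at all. Beside the gene's value, 0.729% of measured genes had a ratio or bound as high. The LPS+CPN signal of 96.1 is close to the floor, so the size of the fold depends on how low signals are treated. Mmp2 (gelatinase A), typical of fibroblasts and other stromal cells, had signals of 80.0 and 109.9, a log2 ratio of 0.46. Its other probe set was at the floor on both arrays (31.2 and 35.3). The Mmp2 difference is about the size of the SD between probe sets.

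Mmp12 encodes the macrophage elastase, named for the cell that makes it. Its 1 probe set had a signal of 3574 with LPS+CPN and 8517 with LPS+CPN+GGOH, 2.38-fold higher (log2 ratio 1.25). This value did not involve the floor, and it stayed between 1.09 and 1.44 under the 10 other ways of processing. Genes this bright seldom differed so much: of 4071 genes with a geometric mean signal of 1000 or more, 33 were at least 2-fold higher (0.811%), against 12.2% of the 3531 genes under 200. These signal classes were set after the values were seen.

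The collagenases were dim. Mmp8, the neutrophil collagenase, had signals of 62.7 and 136, 2.17-fold higher (log2 ratio 1.12), with the LPS+CPN signal just above the floor. It was below 2-fold under median scaling (0.95), quantile scaling (0.88) and a pseudocount (0.68). Beside it, 5 of 10 neutrophil markers with a probe set were measured, 0 were at least 2-fold higher or lower, and their summed signal was 5464 with LPS+CPN and 3353 with LPS+CPN+GGOH. S100a8 made up most of both sums (4282 and 2216), and Csf3r had 748 and 854. Of the other markers, S100a9 (3.49 and 2.59), Camp, Ltf, Mpo and Cxcr2 were at the floor on both arrays. Mmp13, another collagenase, was at the floor with LPS+CPN (30.1) and had a signal of 78.6 with LPS+CPN+GGOH, which gives at least 1.31-fold. With the floor at the 25th percentile its log2 ratio was 1.38, so the call for Mmp13 rests on where the floor is put.

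Mmp14 encodes a membrane-anchored MMP that cuts collagen at the cell surface and activates the Mmp2 precursor. Its brightest probe set (1448383_at) had signals of 6668 and 7222, a log2 ratio of 0.12. A second (1440920_at) had 1459 and 1595, a log2 ratio of 0.13. The third and dimmest (1416572_at) had 344 and 812, a log2 ratio of 1.24. So 2 of the 3 probe sets were nearly level between the arrays, and 1 was more than 2-fold apart. Mmp19, whose enzyme cuts basement membrane proteins, also had probe sets that disagreed. One (1421977_at) had signals of 91.5 and 139.7, a log2 ratio of 0.61, and the other (1421976_at) had 78.3 and 54.1, at least 1.31-fold lower. No direction is given for Mmp19.

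The inhibitors differed from one another. Timp3, which binds to the matrix and also inhibits ADAM proteases, was at the floor with LPS+CPN in all 4 probe sets and above it with LPS+CPN+GGOH in all 4. Its signals were 32.2 and 458 (1449335_at, at least 7.65-fold higher), 15.5 and 740.0 (1419089_at, at least 12.4-fold), 13.8 and 339.5 (1449334_at, at least 5.67-fold), and 28.0 and 78.7 (1419088_at, at least 1.31-fold). The first gives the gene's value. Choosing the probe set after the floor was applied, an alternative added once the data had been seen, would take the second.

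Timp1, an inducible secreted inhibitor, had signals of 5045 and 7412 on its 1 probe set, a log2 ratio of 0.55, short of 2-fold. Timp2, which blocks MMPs and also takes part in activation of the Mmp2 precursor by Mmp14, had 6 probe sets. The brightest (1460287_at) read 15772 and 15798, a log2 ratio of 0.00. The next (1454677_at) read 2006 and 2849 (0.51). The third (1433662_s_at) read 703 and 2123 (1.59), and the fourth (1450040_at) 224 and 580.1 (1.37). Another (1420924_at) was at the floor with LPS+CPN, with 55.1 and 109.8, at least 1.83-fold higher, and the last (1437081_at) was at the floor on both arrays. The Timp2 ratio thus ranged from 0.00 to 1.59, with the brightest probe set lowest. The median over the 5 measured probe sets was 0.87. Over the 4 probe sets above the floor on both arrays the range was 1.59, as wide as or wider in 6.74% of 1558 genes with at least 3 such probe sets. For Mmp14 the range was 1.12 (24.3% of genes as wide), and the median range was 0.77.

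The arrays also differed in the balance of 3' and 5' signal. Control probe sets for the 3' and 5' ends of Actb gave a 3' to 5' signal ratio of 2.44 with LPS+CPN and 1.24 with LPS+CPN+GGOH. For Gapdh the ratios were 1.98 and 0.956. The LPS+CPN array thus had relatively less 5' signal. Where the MMP and TIMP probe sets lie along their transcripts is not recorded in the files or labels, and the part of this difference in their ratios was not tested.

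**Figure D2:**
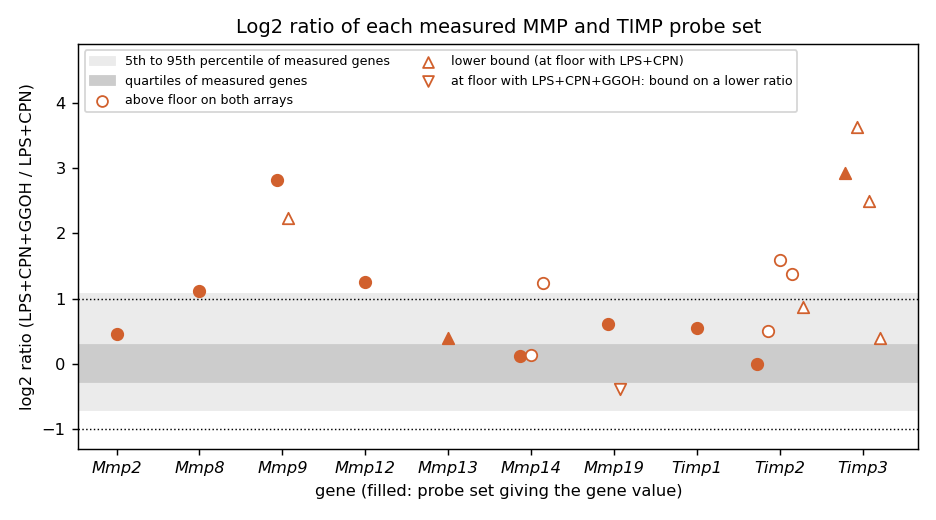
Log2 ratio (LPS+CPN+GGOH over LPS+CPN) of each of the 21 measured probe sets, by gene. Filled symbols give the gene's value, triangles are bounds, the grey bands are the quartiles (-0.28 to 0.29) and the 5th to 95th percentiles (-0.71 to 1.07) of all measured genes, and dotted lines mark 2-fold. Both Mmp9 symbols and 3 of 4 for Timp3 lie above the outer band, and those of Timp2 spread from 0.00 to 1.59.

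By probe set rather than by gene, 21 of the 23 were measured, 13 of them above the floor on both arrays. Of the 21, 10 passed 2-fold upward and 0 downward, against 6.28% and 1.58% of 19616 measured probe sets in all. Among those 10 were 3 of Timp3, 2 each of Mmp9 and Timp2, and 1 each of Mmp8, Mmp12 and Mmp14. Probe sets of a gene share its transcript and are not independent. A probe set at the floor with LPS+CPN can only be higher or drop out, which applied to 7 of the 21.

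Mmp8, Mmp12 and Mmp13 belong to a cluster of 10 MMP genes on chromosome 9, which in RefSeq order are Mmp13, Mmp12, Mmp1b, Mmp3, Mmp1a, Mmp10, Mmp8, Mmp27, Mmp20 and Mmp7. In this cluster 4 genes were measured. The stromelysin gene Mmp3 was at the floor with LPS+CPN (51.8) and had a signal of 146 with LPS+CPN+GGOH, at least 2.44-fold higher. Mmp1b, Mmp1a, Mmp10, Mmp20 and Mmp7 were at the floor on both arrays, and Mmp27 had no probe set of its own symbol. Measured genes were thus interspersed with unmeasured ones along the cluster. Timp1 and Timp3 lie within the synapsin genes Syn1 and Syn3, as RefSeq places them.

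Of the 17 other MMP and TIMP genes, 12 had a probe set and 4 were measured. Of these 4, 3 were at the floor with LPS+CPN and could only be higher or drop out. Besides Mmp3, the measured genes were Mmp23 (8.81 and 126, at least 2.10-fold higher), Mmp24 (64.4 and 119, log2 ratio 0.88) and Mmp17 (45.0 and 89.6, a log2 ratio of at least 0.58). A second probe set of Mmp23 had a log2 ratio or bound of 0.64, short of 2-fold, and one of Mmp24 a log2 ratio of -0.75. The membrane-type MMP genes Mmp17 and Mmp24 were thus dim, as was Mmp23, and Timp4 was at the floor on both arrays (16.8 and 23.8).

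The related ADAM and ADAMTS proteases, some of which TIMPs also inhibit, were described as a list of 19. Of the 12 measured, 4 were at least 2-fold higher and none lower, with a median log2 ratio of 0.51. Over all measured genes the shares were 5.50% and 1.66%. Of dim genes, with a geometric mean signal under 200, 12.2% were at least 2-fold higher. Of the 12, 4 were at the floor with LPS+CPN and could not have been lower. Adam19 was at least 4.93-fold higher (29.1 and 295), Adamts5, an aggrecanase, at least 3.18-fold (51.9 and 190.3) and Adamts9 at least 3.10-fold (42.0 and 186). Over 3 measured probe sets each, log2 ratios or bounds ran from 0.95 to 1.83 for Adamts5 and from 0.80 to 1.92 for Adamts9. Adamts1 was measured on both arrays (79.8 and 273, log2 ratio 1.77). Adam17, which sheds TNF and is inhibited by Timp3, had signals of 5464 and 3299, a log2 ratio of -0.73, with probe sets between -0.73 and 0.51.

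Genes that activate, inhibit, bind or clear MMPs formed a list of 22, of which 10 were measured. In this list 3 were at least 2-fold higher and none lower, against 5.50% and 1.66% of all measured genes, and the median was 0.27. Serpinb2, an inhibitor of plasminogen activators, was 15.4-fold higher (211 and 3241). Thbs1, which encodes the matrix protein thrombospondin, was 6.17-fold higher (655 and 4045), and Plat, tissue plasminogen activator, 3.57-fold (63.8 and 228). Lcn2, whose protein binds MMP9, had 3816 and 6219, a log2 ratio of 0.70. Furin, the convertase that processes the Mmp14 precursor, had 1534 and 1151 (-0.41), and Lrp1, a receptor that clears MMPs, 4279 and 2805 (-0.61). The second probe set of Lrp1 had 0.11.

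Proteins that MMPs cut were represented by 23 matrix genes, of which 21 were measured. Of these, 15 were at least 2-fold higher and none lower, against 5.50% and 1.66% of all measured genes. Of the 21, 9 were at the floor with LPS+CPN and could not have been lower. The median log2 ratio was 2.84. The collagen gene Col1a2 had a log2 ratio of 5.28 (287 and 11165). Col5a2 was at least 30.8-fold higher, Col3a1 at least 25.9-fold and Bgn, a matrix proteoglycan, had a log2 ratio of 4.37. Their probe sets differed in size. Log2 ratios or bounds ran from 0.88 to 5.83 for Col1a2 and from 0.86 to 4.69 for Col3a1. They ran from 2.03 to 4.95 for Col5a2 and from 4.37 to 5.14 for Bgn. The elastin gene Eln, the substrate for which the Mmp12 enzyme is named, had 69.2 and 104, a log2 ratio of 0.59. This list shares 5 genes with the fibroblast markers below. Without them 10 of 16 measured genes were at least 2-fold higher, and the median was 1.87.

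Fibroblast and mesothelial markers were higher on the LPS+CPN+GGOH array. Of the fibroblast markers, 10 of 12 measured were at least 2-fold higher, 4 of 14 were above the floor with LPS+CPN, and their summed signal was 1489 with LPS+CPN and 30963 with LPS+CPN+GGOH. Of the mesothelial markers, 8 of 10 measured were at least 2-fold higher. Only 1 of 12 was above the floor with LPS+CPN, and the sums were 341 and 2826. Over all measured genes, 5.50% were at least 2-fold higher. With LPS+CPN, Col1a1, Pdgfra, Wt1 and Msln were at the floor. Lum and Postn were at the floor on both arrays. Macrophage markers were above the floor on both arrays for 15 of 15 genes, 6 of them with ratios above 0. Itgam was 2.07-fold higher (312 and 646), none was 2-fold lower, the median log2 ratio was -0.19, and the sums were 268194 and 241079.9. Mmp2, Mmp14, Timp2 and Timp3 are genes that fibroblasts are known to express. The part of such cells in the values of Timp3 and the other family genes was not tested. Endothelial markers were measured for 3 of 8 genes, all with ratios below 0. Of them Vwf was 2.10-fold lower (188 and 89.6), and Pecam1 and Cdh5 were at the floor on both arrays.

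**Figure D3:**
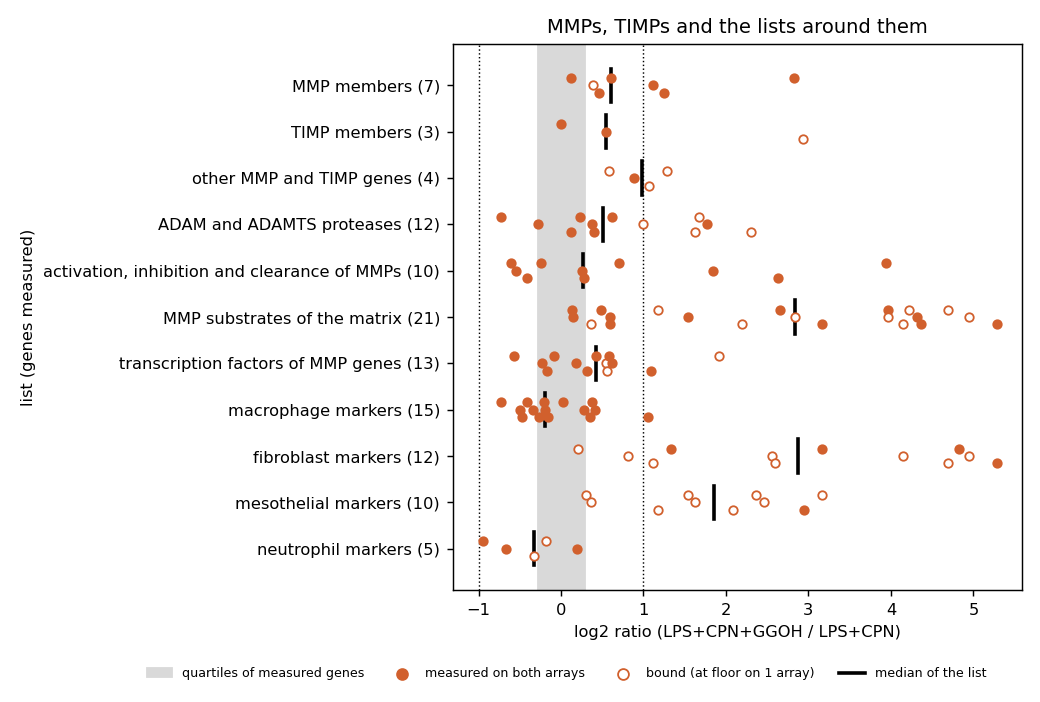
Log2 ratios (LPS+CPN+GGOH over LPS+CPN) of the measured genes of each list, 1 point per gene, with the number measured in parentheses. Open points are bounds, the black bar is the list's median, the grey band holds the quartiles of all measured genes, and dotted lines mark 2-fold. The MMP and TIMP medians (0.61 and 0.55) lie between that of the macrophage markers (-0.19) and those of the matrix substrates (2.84) and fibroblast markers (2.87). So do those of the ADAM and ADAMTS proteases (0.51), the transcription factors (0.42), the activation and inhibition list (0.27), the other MMP and TIMP genes (0.98) and the mesothelial markers (1.85).

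Scaling and floor moved the family in different ways. The genes at least 2-fold higher were Mmp9, Mmp12 and Timp3 under each of the 4 other scalings, with Mmp8 added after lowess and under equal macrophage markers. For all genes, 76.8% of those past 2-fold were higher as deposited, 61.4% under median scaling, 62.1% under quantile scaling and 89.6% under equal macrophage markers. Arrays divided by their medians shifted the median of all genes by -0.16 and equal macrophage markers by 0.18. With the floor raised to the 75th percentile, a signal of 376, 6 of the 10 genes were measured and Mmp12 alone was at least 2-fold higher (log2 ratio 1.25). At that floor the LPS+CPN signals of Mmp9 and Timp3 were at the floor, and their log2 ratios were known only as at least 0.85 and at least 0.29.

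**Figure D4:**
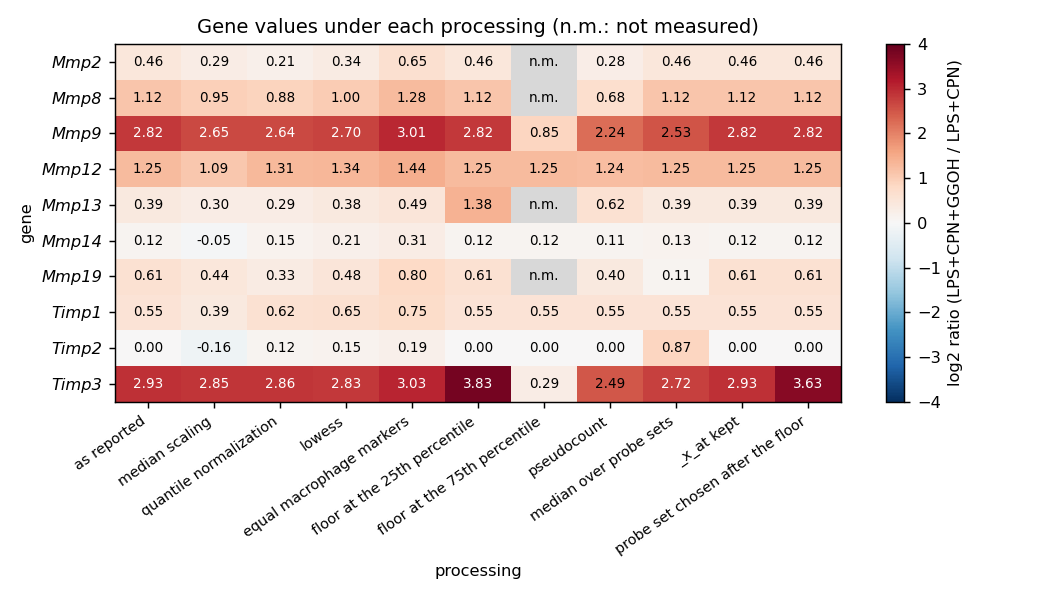
Log2 ratio of each gene (rows) under the processing reported and 10 alternatives (columns), with red for higher and blue for lower with LPS+CPN+GGOH and n.m. for genes not measured. Mmp12 stays between 1.09 and 1.44, and only the scalings and the pseudocount could move it. Timp3 ranges from 0.29 to 3.83 with the floor and the choice of probe set.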

How the data were processed

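RNA from 2 cultures was hybridized to 1 single-colour array each. The deposited table holds 1 signal intensity per probe set on a linear scale; the submitters' processing notes name MAS5, whose version and scaling target the sources used here do not give. The mean of the central 96% of signals was 500.0 on each array. Of 45037 non-control probe sets, 34945 have 1 gene symbol in the platform annotation. Of these, 2038 _x_at sets, prone to cross-hybridization, were left out, and 32907 probe sets of 18093 genes remained. The floor was the 50th percentile of pooled signals. With 1 array per group no test was made, and genes were counted at 2-fold or more, bounds included. The number of arrays limits the precision.

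Every family gene and probe set is named, with up to 4 genes past 2-fold per related list and every measured gene of the other MMP and TIMP list. Mmp24's second probe set, Adam17, Lcn2, Furin, Lrp1, Eln, Itgam, Vwf, S100a8, Csf3r, Blk, Fosl1, Fosb, Timp4 and other genes at the floor, Fos, Jun, Junb, Jund and the markers named as at the floor were added after their values were seen. So were the second probe sets of Mmp23, Lrp1 and Fosl2 and the probe set ranges of Adamts5, Adamts9 and the matrix genes. The family and the lists were chosen with earlier results of these data known. With 2 arrays no likeness between patterns was computed. Alternatives were 4 scalings (median, quantile, lowess with span 0.4, equal macrophage markers), a lower floor (25th percentile) and a higher one (75th), a pseudocount, the median over probe sets and _x_at kept; choosing the probe set after the floor was added once the data had been seen. Steps were tested on simulated data, with Python 3.11.15, pandas 2.3.3 and statsmodels 0.14.6.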

Additional observations from a re-analysis of the deposited data

How the results depend on the processing

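Leaving out an array was not possible, and no paired analysis was possible because each group has 1 array. Below, a moved value lies over 0.45, the SD between probe sets, from the one reported, and a moved count differs by more than 1.5 times. The count of family genes at least 2-fold higher was 4 as reported and 1 when the floor was the 75th percentile. The family's median stayed between 0.42 and 0.86 under all 10 alternatives, and 0 genes were at least 2-fold lower under any.

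Among single genes, Mmp13 moved to 1.38 and Timp3 to 3.83 with the floor at the 25th percentile. Mmp9 moved to 2.24 with a pseudocount. As medians over probe sets, Mmp19 moved to 0.11 and Timp2 to 0.87, and Timp3 was 3.63 with its probe set chosen after the floor.

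Of the other MMP and TIMP genes, 2 were at least 2-fold higher as reported, 1 under median scaling, quantile scaling, a pseudocount or the median over probe sets, and 0 when the floor was the 75th percentile. ADAM and ADAMTS genes numbered 7 with the floor at the 25th percentile and 0 at the 75th, and 2 genes of the activation and inhibition list were at least 2-fold lower at the 25th. The transcription factors numbered 1 in place of 2 under median scaling, quantile scaling, the floor at the 75th percentile and the median over probe sets. For all genes, 634 higher and 191 lower became 1658 and 1127 at the 25th percentile and 126 and 88 at the 75th. The lower count was 332 under median scaling, 307 under quantile scaling and 101 under equal macrophage markers. Signals near the floor limit Mmp2, Mmp8, Mmp9, Mmp13, Mmp19 and Timp3.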

Other observations

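Transcription factors known to act on MMP promoters, mainly of the AP-1 and ETS families, formed a list of 16, of which 13 were measured. Of these 2 were at least 2-fold higher and none lower, against 5.50% and 1.66% of all measured genes. The median log2 ratio was 0.42. In this list 3 genes were at the floor with LPS+CPN and could not have been lower. Etv5, an ETS factor, was at the floor with LPS+CPN and at least 3.75-fold higher (49.1 and 224). Fosl2, an AP-1 subunit, had signals of 358 and 760.0, a log2 ratio of 1.09. The other probe set of Fosl2 had 0.82, short of 2-fold. By gene value, the other measured AP-1 genes were short of 2-fold or known by a bound under it. Fos had a log2 ratio of 0.58 (7445 and 11121), Fosl1 0.62 (116 and 179), Junb 0.42 and Jund 0.31. Jun had -0.08 on its brighter probe set and lay close to 2-fold lower on the other, and Fosb was at the floor with LPS+CPN (6.70 and 88.5, at least 1.48-fold higher).

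Mast cell and eosinophil markers were at the floor on both arrays for all 8 and all 6 genes with a probe set. Of 8 B and T cell markers 1 was measured, Blk, at the floor with LPS+CPN and at least 1.70-fold higher.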
